A study of Sus scrofa with 12 samples.

Results

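The genes described here are those that drive the cell division cycle and mitosis, together with genes that share their family names. They were taken by name: every gene whose symbol begins with MCM, CDC, CDK, E2F or KIF and a number, with cyclin A, B, D, E or T and a number, or with CENP, AURK or BUB1, plus MKI67, TOP2A, PCNA and PLK1, and without the CDC42 genes. This naming rule took 117 symbols of the 13363 in the mRNA table. Of these, 98 had reads in at least 1 library, and 87 passed the filter on low counts and were tested among 12392 table entries. Symbols were chosen by name, with earlier results of these data known, and reads decided which entry of a symbol was used.

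Cells copy their DNA in S phase and divide in mitosis. E2F transcription factors switch on the genes of S phase once cyclin-dependent kinases (CDKs) have released them from the RB protein, and the MCM helicase, loaded with the help of CDC6 and activated by CDC7 and CDC45, unwinds the DNA. In mitosis, the kinase PLK1 and the mitotic kinesins build the spindle and complete cytokinesis, the CENP proteins tie chromosomes to it, and BUB1 and BUB1B delay the anaphase-promoting complex and its activator CDC20 until every chromosome is attached. Many of these transcripts are most abundant in cycling cells. The naming rule also takes in genes with other tasks, such as kinesins that carry cargo along microtubules and CDKs that act on RNA polymerase II. Tables of promoter or protein sequences were not used here, so no sequences are shown.

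Mesenchymal stem cells (MSCs) were grown from abdominal fat of 3 female domestic pigs aged 3 months, cultured with platelet lysate and used at passage 3. Extracellular vesicles (EVs), the membrane particles that cells release, were collected by ultracentrifugation from the supernatants of the same MSCs. Each pig gave 1 MSC and 1 EV mRNA library, so that pigs 1, 2 and 3 are replicates 1, 2 and 3 of both groups, and the labels name no treatment or genetic change. A pig stands for 1 culture, and differences between animals cannot be told apart from differences between their cultures.

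The libraries held 10429085 to 12276855 reads on genes, so that a count of 0 allows up to 3 reads, or 0.244 to 0.288 CPM (counts scaled to the library total). Levels are given below as CPM after TMM scaling, in the order of pigs 1, 2 and 3, and levels of different genes are compared only in the deposited RPKM, which accounts for gene length. Of 8 MSC marker genes, 5 had reads, THY1 and COL1A2 were listed at 0 and COL1A1 was not analysed here. The 4 EV surface markers all had reads, but ITGB1 had only 1 to 3 and CD9 only 4 to 7 per library.

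Several genes by which dividing cells are usually recognised could not be read. MKI67, which encodes the Ki-67 antigen, TOP2A, which encodes topoisomerase II alpha, and CDK1, the kinase of mitotic entry, were listed at 0 in all 6 libraries, as were CCNA2, CCNB2, AURKA and AURKB, while CCNB1 had 1 read in all. In total, 19 of the 117 genes had 0 reads. Of these 19, 14 lay at 90% or more within the span of another entry, as TOP2A did with an entry named TOPOII. Likewise, the entry named MKI67 lay within that of NIFK, which encodes a protein that binds Ki-67. The gene model of the MKI67 entry had 1551 bases, and whether this entry holds the Ki-67 gene was not tested. Another 4 (CCNB3, CDK16, CENPI and KIF4A) lay on the sequence named X, and all 1170 entries placed on an X, Y or MT sequence had 0 reads, and the remaining gene was KIF2B. Over the whole table, 56.17% of the 10919 entries with such a shared span had 0 reads, against 28.85% of the 16009 entries with no overlap. The cause of the 0 reads was not tested, and they are not read as absence of the transcripts. PCNA, CCND1, CDK2, CDK6, MCM6, MCM7 and CENPA were matched to no entry and were not analysed here. The second entries of 19 symbols had 0 reads, and the most-read entry was used.

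Many genes of DNA replication and mitosis were lowest in pig 2, in its MSCs and again in its EVs. This held for 6 of 9 replication genes, all 9 mitotic kinesins and 7 of 11 centromere genes tested, against 16.6% of all entries. E2F1, the helicase subunit MCM3 and the spindle motor KIF11, for example, had 66, 85 and 30 reads in the MSCs of pig 2, against 496 to 784 in those of pigs 1 and 3. In a fit with the group and the pig as terms, added after this order had been seen, 17 of the 87 genes (19.5%) differed between pigs at an adjusted p under 0.05, against a background of 1.96% over all 12392 entries (edgeR, Benjamini-Hochberg). The 17 genes were E2F1, E2F7, E2F8, MCM2, MCM3, MCM4, PLK1, BUB1, BUB1B, CENPF, KIF11, KIF14, KIF15, KIF18B, KIF20A, KIF23 and KIF2C. All 17 were lowest in pig 2 in both fractions, as were 126 of the 243 entries that passed the same test. The fit counts the MSC and EV libraries of a pig as its 2 replicates, although both came from the same culture, so that its p-values do not measure how much cultures from 1 animal would vary. Leaving out the MSC library of pig 2 lowered the count to 5 of 89 genes (5.62%, against 1.07% of all entries). Leaving out any other library gave 15 to 24 genes (16.9% to 27.6%), where 1.82% to 6.48% of all entries differed.

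Between EVs and MSCs, 0 of the 87 genes were higher and 0 were lower past a fold change of 2 and an adjusted p under 0.05 (edgeR, without the pig as a term, lowest adjusted p = 0.227), against 0.0% of all entries in either direction. An unadjusted p under 0.05 was reached by 7 of the 87 genes, and by 1978 of the 12392 entries. With a fold change over 2 as well, 2 genes, CDC45 and CENPT, were lower in EVs against a background of 3.57%, and 3 genes, CCNT2, CDK17 and CENPQ, were higher against 5.55%. These unadjusted counts rested on single libraries. Without the MSCs of pig 2, 16 genes were lower, against 3.89% of all entries, and 1 was higher, against 4.44%. Without the EVs of pig 2, the MSCs of pig 1 or the MSCs of pig 3, 0 genes were lower, against 2.12%, 4.33% and 3.81%. Leaving out the EVs of pig 1 gave 5 lower against 4.29%, and leaving out the MSCs of pig 1 gave 6 higher against 7.45%. DESeq2 placed 0 genes lower and 1 gene, CCNT2, higher at an adjusted p under 0.05, against 1.5% and 2.04% of all entries. Once the pig was taken as a block, 7 genes fell in EVs by more than 2-fold at an adjusted p under 0.05 (E2F1, E2F7, MCM3, MCM4, PLK1, KIF20A and KIF2C), or 7 of 87 against 0.605% of all entries, and 0 rose against 0.492%. All 7 were among the 17 genes that differed between pigs, and both tests came from the same fit. Over all entries, 24 of the 136 called with the block also differed between pigs. The pairing comes from the pig named in the labels of each library.

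**Figure D1:**
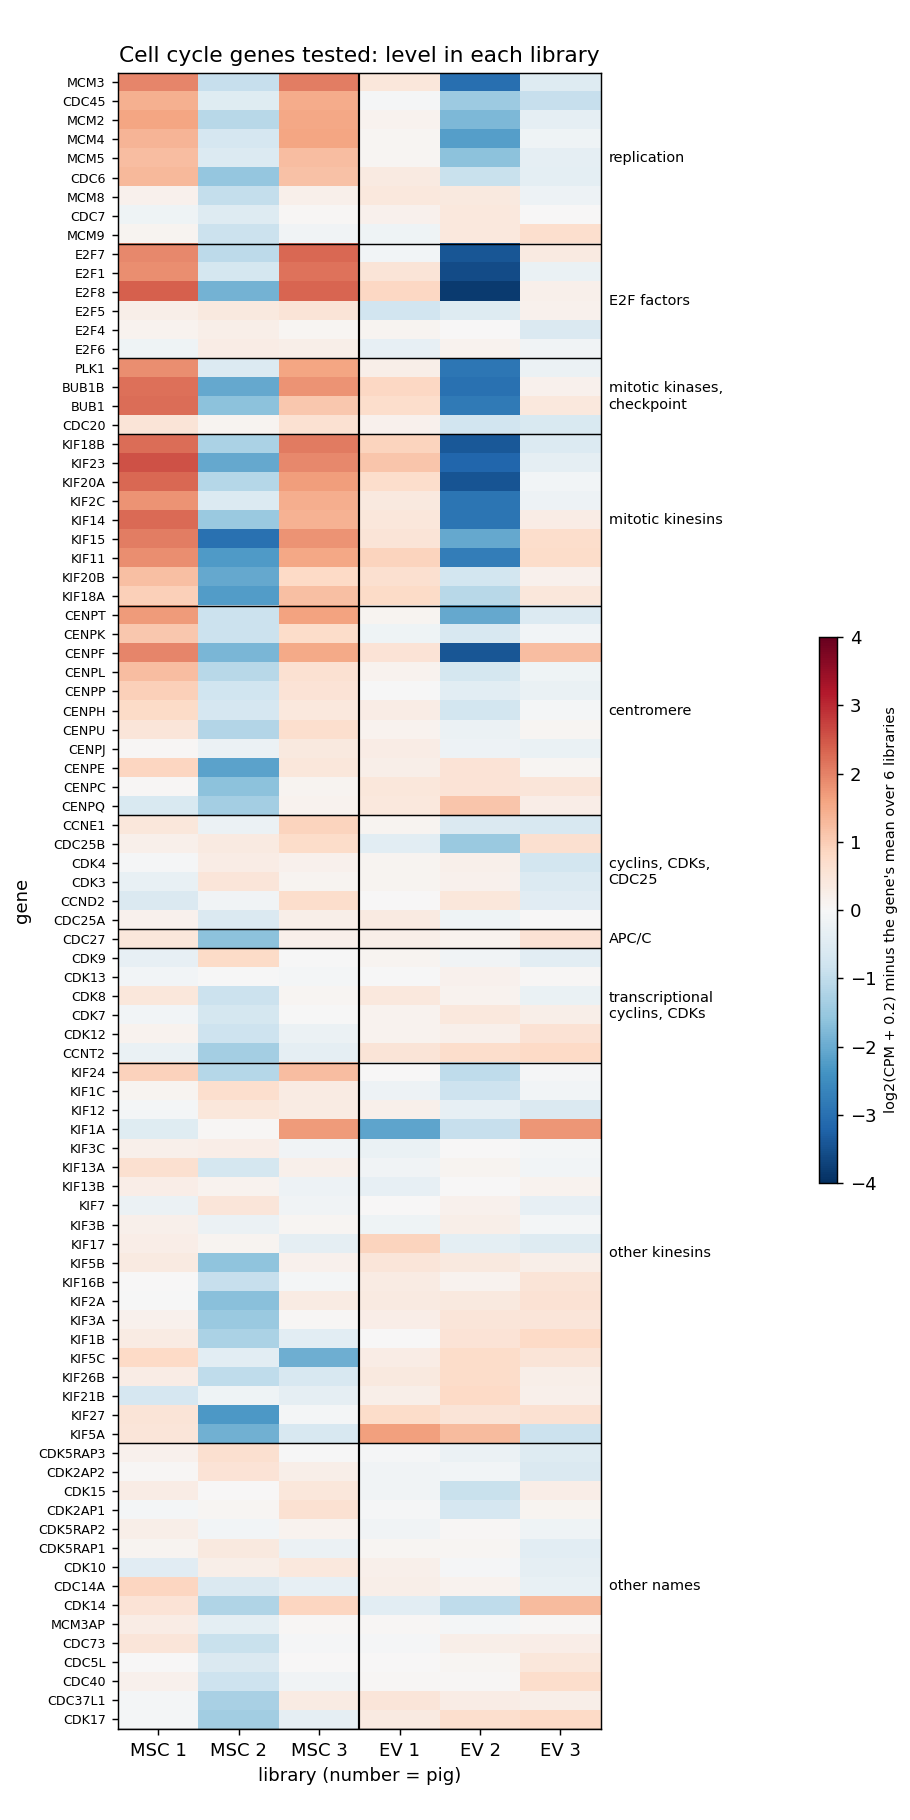
Level of the 87 tested genes (rows, grouped by role) in the 6 libraries (columns), as log2(CPM + 0.2) minus the mean of the gene over all 6 libraries, with red above and blue below that mean. In the rows of replication, E2F, mitotic kinase and mitotic kinesin genes, the EV library of pig 2 holds most of the darkest blue and the MSC libraries of pigs 1 and 3 the darkest red.

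Of the 9 replication genes, all were lowest in pig 2 among the MSCs, and 6 were lowest in pig 2 among the EVs as well. Over all entries, 46.0% were lowest in the MSCs of pig 2, and 16.6% in both of its fractions. MCM2, a subunit of the helicase (chromosome 13, 80148532 to 80168594, build susScr3), stood at 73.7, 11.4 and 72.8 CPM in MSCs and at 27.3, 7.03 and 19.3 CPM in EVs. MCM3, another subunit (chromosome 7, 52534784 to 52554592), stood at 60.7, 8.14 and 64.7 CPM in MSCs and at 21.3, 1.72 and 10.7 CPM in EVs. In both genes the MSCs of pig 2 lay below the EVs of pig 1, so that the ranges of EVs and MSCs overlapped although EVs were lower within each pig.

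MCM4 followed the same order, with 65.7, 15.9 and 76.1 CPM in MSCs and 26.9, 5.39 and 22.3 CPM in EVs. Its difference between pigs had an adjusted p = 0.0252, that of MCM3 an adjusted p = 0.0119 and that of MCM2 an adjusted p = 0.0414 (edgeR). With the pig as a block, MCM3 fell in EVs by 2.10 ± 0.34 (SE) on the log2 scale (adjusted p = 0.0305) and MCM4 by 1.54 (adjusted p = 0.0426), while MCM2 was at -1.36 (adjusted p = 0.0761). CDC45, which joins the helicase at the fork, stood at 24.4, 6.41 and 25.5 CPM in MSCs and at 8.7, 3.2 and 4.65 CPM in EVs, a log2 fold change of -1.77 ± 0.60 (SE) without the block (unadjusted p = 0.0196, adjusted p = 0.259). MCM5 lay on an unplaced sequence and had a log2 fold change of -1.35. The licensing factor CDC6 had only 6 reads in the MSCs of pig 2, against 69 and 57 in the other MSC libraries.

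Other replication genes did not follow. MCM8 and MCM9, relatives of the helicase that act in DNA repair, and CDC7, the kinase that fires origins, had log2 fold changes of 0.34, 0.61 and 0.41. Their EV levels were lowest in pig 3 or pig 1, not in pig 2.

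E2F factors did not all follow the same order of pigs. E2F1, an activator of S phase genes (chromosome 17, 42116178 to 42121899), stood at 38.4, 6.32 and 48.1 CPM in MSCs and at 15.1, 0.703 and 8.6 CPM in EVs. E2F7 and E2F8, which repress E2F targets late in the cycle, were lower in level but had the same order. E2F7 stood at 14.02, 1.63 and 18.4 CPM in MSCs and at 3.29, 0.156 and 4.65 CPM in EVs. E2F8 had 265, 9 and 233 reads in the MSC libraries and 81, 1 and 43 in the EV libraries. The values of pig 2 in EVs thus rest on 9, 2 and 1 reads for E2F1, E2F7 and E2F8.

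In contrast, E2F4, known as a repressor in resting cells, stood at 51.7, 54.3 and 49.0 CPM in MSCs and at 49.9, 47.0 and 31.4 CPM in EVs, with pig 2 not low in either. E2F6, a repressor that works without RB, stood at 34.1, 46.8 and 44.9 CPM in MSCs and at 30.4, 42.3 and 34.4 CPM in EVs. E2F5 had 22, 20 and 25 reads in the MSC libraries and 9, 12 and 16 in the EV libraries. After scaling it was lowest in pig 1 in both fractions. The SD of the log2 CPM over the 3 MSC libraries was 0.07 for E2F4 and 2.48 for E2F8. E2F4 lies within the wide span of GALNS, and reads of that region cannot be assigned to either gene with certainty. Within each pig, all 6 tested E2F genes were lower in EVs than in MSCs, and with the pig as a block E2F1 fell by 2.23 (adjusted p = 0.0404) and E2F7 by 2.25 (adjusted p = 0.0444) on the log2 scale.

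PLK1, the mitotic kinase (on an unplaced sequence), stood at 48.6, 9.09 and 40.2 CPM in MSCs and at 15.7, 1.64 and 11.3 CPM in EVs. Its difference between pigs had an adjusted p = 0.0185, and with the pig as a block it fell in EVs by 1.94 on the log2 scale (adjusted p = 0.0348, edgeR). The checkpoint kinase BUB1 stood at 16.8, 0.957 and 7.46 CPM in MSCs and at 5.74, 0.312 and 4.65 CPM in EVs. BUB1B, its partner in the checkpoint, had 164, 5 and 113 reads in the MSC libraries and 56, 2 and 29 in the EV libraries. For both checkpoint genes, pig 2 was lowest in each fraction (adjusted p = 0.0166 and 0.0114 for the difference between pigs), and neither passed the adjusted test of EVs against MSCs, with or without the pig as a block. CDC20 varied less, with 7.05, 5.26 and 7.55 CPM in MSCs and 5.49, 2.81 and 3.14 CPM in EVs, and its adjusted p between pigs was 0.88. At 82.27%, the span of CDC20 was shared with another entry.

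The mitotic kinesins had the highest spread among MSC libraries of all roles. All 9 tested were lowest in pig 2 among the MSCs and among the EVs, against 37 of all 87 genes (42.5%) and 16.6% of all entries. Their median SD over the 3 MSC libraries was 1.98 on the log2 scale, against 0.74 over the 87 genes and 0.46 over all entries, and 7 of the 9 differed between pigs past the adjusted threshold. The median distance of a kinesin from its own group mean was -2.26 in the MSCs and -2.25 in the EVs of pig 2, on the log2 scale.

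KIF20A, a kinesin of the central spindle needed for cytokinesis, was the most-read of them (chromosome 2, 145901081 to 145910004). It stood at 132.7, 11.9 and 85.8 CPM in MSCs and at 43.7, 2.27 and 24.6 CPM in EVs, so that the highest MSC library exceeded the lowest 11.2-fold. KIF23, its neighbour in function at the central spindle, stood at 75.5, 2.97 and 49.4 CPM in MSCs, a 25.5-fold range, and at 27.5, 1.25 and 9.81 CPM in EVs. KIF11, the motor that pushes spindle poles apart, stood at 52.9, 2.87 and 42.5 CPM in MSCs and at 26.9, 1.95 and 24.2 CPM in EVs. On the log2 scale, the levels of these 3 genes in pigs 1 and 3 were closer to each other than either was to pig 2, with adjusted p = 0.00571 for KIF20A, 0.00494 for KIF23 and 0.00487 for KIF11 (edgeR, difference between pigs).

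KIF2C, which removes tubulin from microtubule ends at centromeres, had 487, 77 and 352 reads in the MSC libraries and 168, 16 and 93 in the EV libraries. It lies wholly within the span of TMEM53, which has 491 reads on the opposite strand, and reads of the pair cannot be told apart without knowledge of strand. KIF14, KIF15 and KIF18B had between 2 and 18 reads in the MSCs of pig 2, against 99 to 279 in the other MSC libraries. KIF18A and KIF20B were also lowest in pig 2, but their difference between pigs did not pass the threshold (adjusted p = 0.146 and 0.189). With the pig as a block, KIF20A fell in EVs by 1.90 (adjusted p = 0.0305) and KIF2C by 1.82 (adjusted p = 0.0467) on the log2 scale, and KIF23, at -1.72, had an adjusted p = 0.0503.

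**Figure D2:**
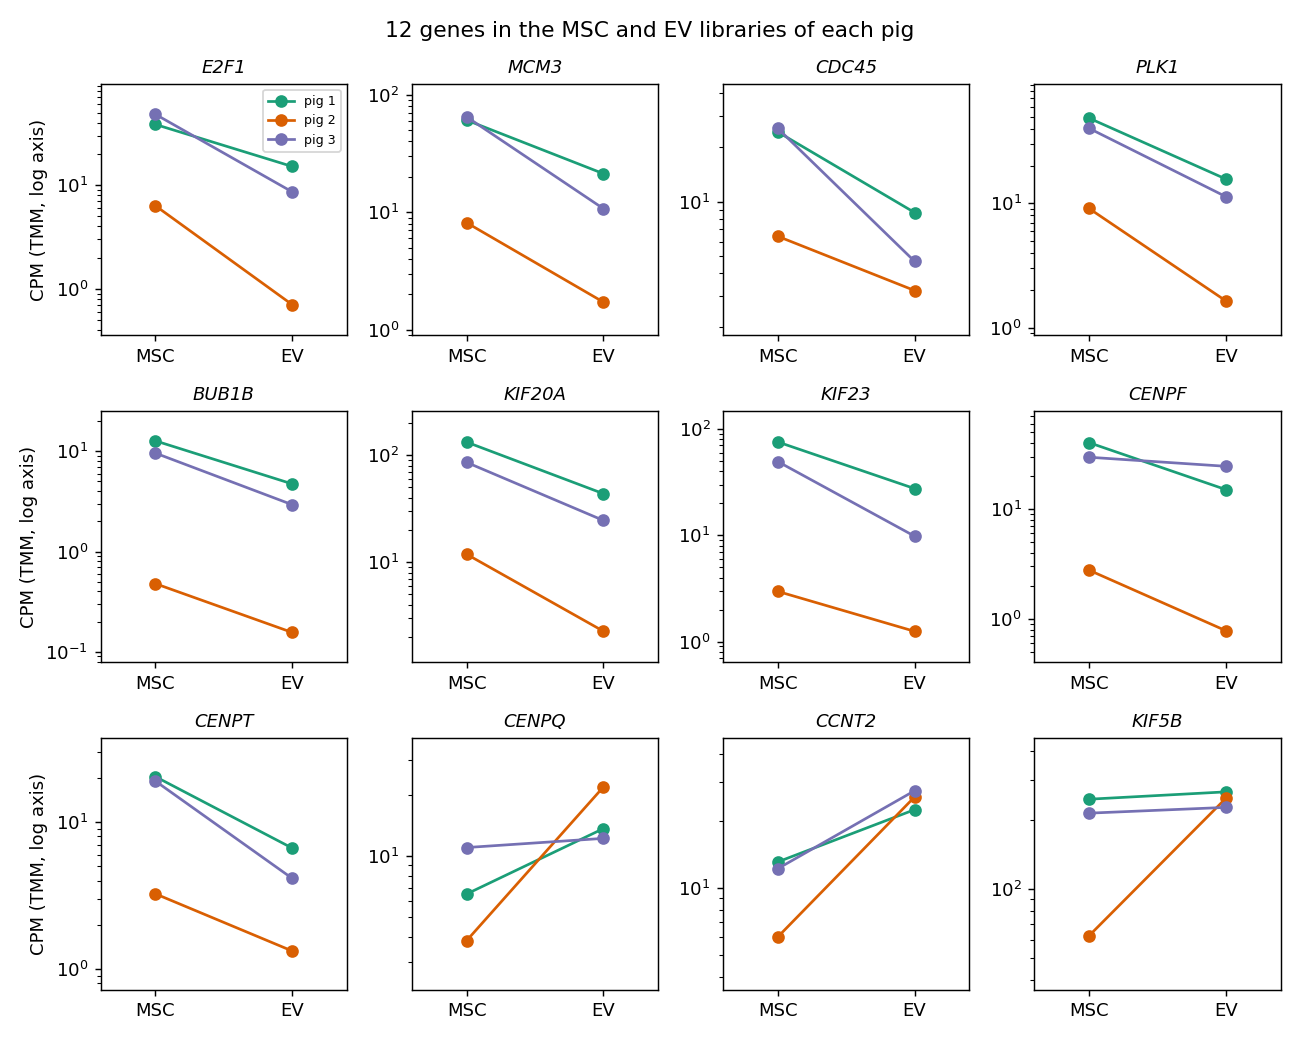
CPM after TMM scaling (log axes, which differ between panels) of 12 genes in the MSC and the EV library of each pig, with the points of a pig joined by a line. In the panels from E2F1 to CENPT pig 2 lies lowest in both fractions, whereas for CENPQ and KIF5B its EV level is as high as in the other pigs or higher while its MSC level is lowest (62.4 CPM for KIF5B).

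Centromere genes split between these patterns. All 11 tested were lowest in pig 2 among the MSCs, against 46.0% of all entries. Among them, 7 were lowest in pig 2 among the EVs as well, against 16.6% of all entries lowest in both. CENPF, a kinetochore protein that accumulates towards mitosis, stood at 40.2, 2.78 and 29.6 CPM in MSCs and at 15.03, 0.781 and 24.5 CPM in EVs, and was the 1 centromere gene that differed between pigs (adjusted p = 0.00924). CENPT, which links the centromere to the outer kinetochore, stood at 20.5, 3.25 and 19.1 CPM in MSCs and at 6.67, 1.33 and 4.15 CPM in EVs. Its log2 fold change was -1.82 ± 0.78 (SE, unadjusted p = 0.0497, adjusted p = 0.312), and it lies within the span of GALNS. CENPE, a kinetochore motor, stood at 25.8, 3.06 and 19.6 CPM in MSCs but at 16.6, 21.0 and 14.97 CPM in EVs, where pig 2 was highest.

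CENPC, which binds centromeric chromatin, stood at 19.6, 6.03 and 20.6 CPM in MSCs and at 26, 27.7 and 26.9 CPM in EVs. All its EV values lay above all its MSC values, as for 10 of the 87 genes against 14.3% of all entries, while 4 genes had all EV values below all MSC values, against 13.6%. CENPQ, of the inner kinetochore, stood at 6.51, 3.83 and 11.0 CPM in MSCs and at 13.7, 21.95 and 12.2 CPM in EVs (log2 fold change 1.16 ± 0.45 (SE), unadjusted p = 0.0337, adjusted p = 0.285). The whole span of CENPQ is shared with MUT, which has 592 reads on the opposite strand. Between them, the other tested centromere genes had log2 fold changes from -0.87 for CENPK to -0.13 for CENPJ.

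Few cyclins and CDKs of the cell cycle could be read. Of 15 such genes, 8 had reads and 6 were tested. Between pigs, 0 of the 6 differed at an adjusted p under 0.05, against 1.96% of all entries. Past the same threshold, 0 of the 6 differed between EVs and MSCs (edgeR, lowest adjusted p = 0.362, for CCNE1). CCNE1, the cyclin E of S phase entry, stood at 8.98, 5.46 and 12.2 CPM in MSCs and at 7.01, 4.22 and 4.05 CPM in EVs, within the span of GALNS. CDC25B, a phosphatase that activates CDK1, stood at 45.5, 50.6 and 65.4 CPM in MSCs and at 29.1, 14.1 and 61.4 CPM in EVs. CDC25A, its relative at S phase entry, stood at 5.81, 3.35 and 6.02 CPM in MSCs and at 6.59, 4.53 and 5.16 CPM in EVs. CDK4 had 14 to 37 reads per library. Pig 2 was lowest in both fractions in 1 of these 6 genes, against 16.6% of all entries.

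For the anaphase-promoting complex, CDC27 was the 1 subunit tested, as CDC16 had 1 read and CDC23 had 0. It stood at 98.7, 22.8 and 82.3 CPM in MSCs and at 84.0, 78.7 and 106.6 CPM in EVs. The MSCs of pig 2 were thus low and its EVs near those of the other pigs, and the adjusted p between pigs was 0.601.

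**Figure D3:**
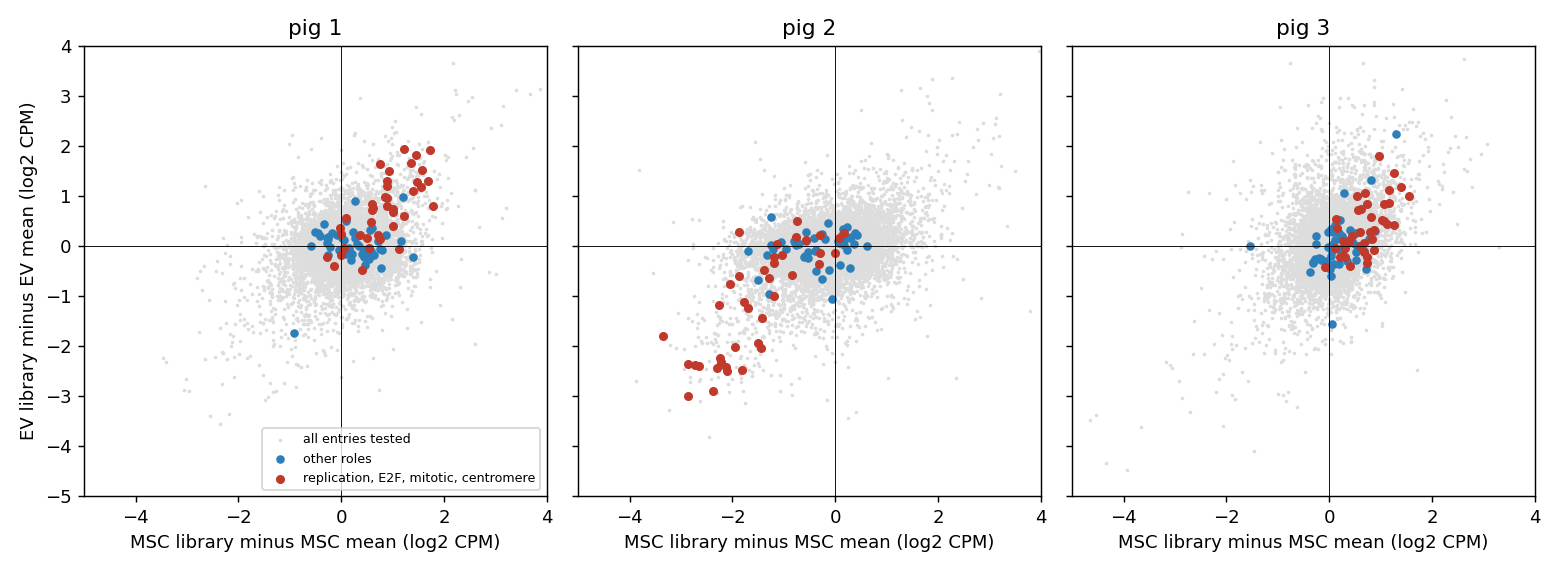
Each panel shows a pig, with the distance of its MSC library from the MSC mean on the x axis and of its EV library from the EV mean on the y axis, both in log2 CPM, for all tested entries (grey), the 39 tested replication, E2F, mitotic and centromere genes (red) and the other 48 tested genes (blue). In pig 2 many red points lie in the lower left, with medians of -2.26 and -2.25 for the mitotic kinesins, and 13 of the 12392 entries lie outside the axes.

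By role, the median log2 fold change of EVs over MSCs was -1.58 for mitotic kinesins, -1.40 for mitotic kinases and checkpoint genes, -1.35 for replication genes and -1.33 for E2F factors. It was -0.41 for centromere genes and -0.21 for cell cycle cyclins, CDKs and CDC25. On the other side, it was 0.33 for transcriptional cyclins and CDKs and 0.32 for the other kinesins, with -0.20 over the 87 genes and -0.02 over all entries. These medians describe the lists, and no test was made over their members. In all 3 pigs, 31 of the 87 genes (35.6%) were lower in EVs than in MSCs, against 24.2% of all entries, and 14 (16.1%) were higher, against 22.5%.

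**Figure D4:**
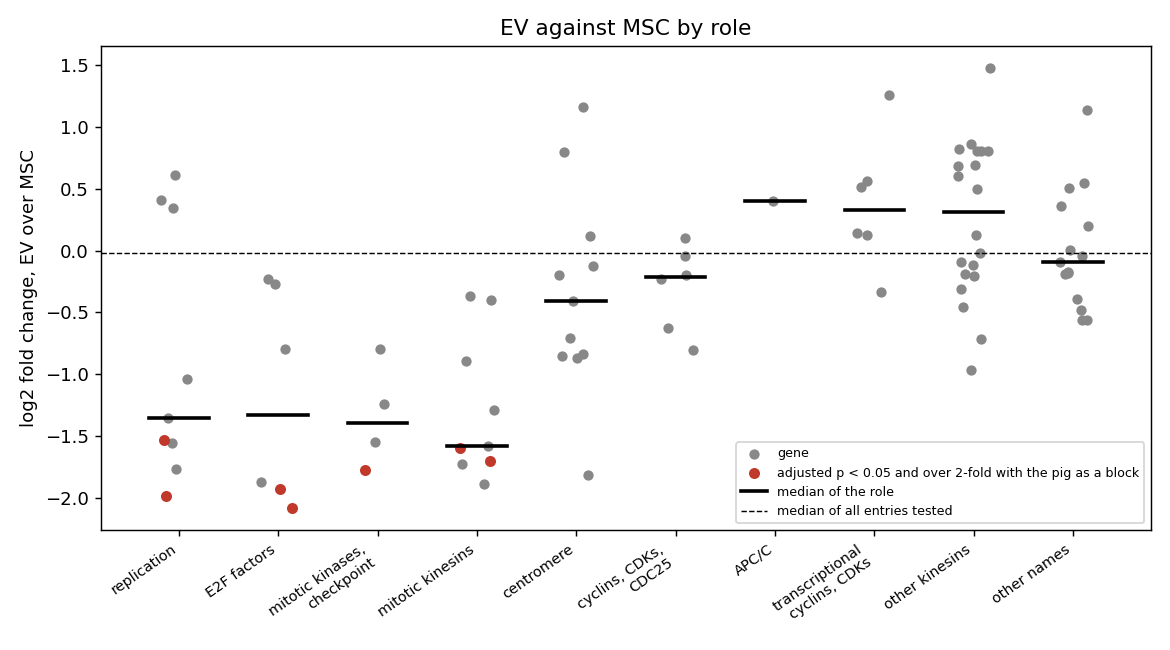
Log2 fold change of EVs over MSCs (y axis, fit without the pig as a block) of each tested gene, by role (x axis), with the median of each role as a bar and the median of all entries as a dashed line. The 7 red points, which fell by more than 2-fold at an adjusted p under 0.05 with the pig as a block, all lie in the replication, E2F, mitotic kinase and mitotic kinesin columns.

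Within single pigs, the median difference of EVs minus MSCs over the mitotic kinesins was -1.40, -1.14 and -1.11 log2 CPM in pigs 1, 2 and 3. For replication genes it was -1.17, -0.68 and -1.60, and for E2F factors -1.17, -1.48 and -1.29. The medians of these roles were thus below 0 in every pig. Lower in the EVs of all 3 pigs were 5 of the 9 replication genes, 6 of the 9 mitotic kinesins and all 6 E2F genes. Over all entries the share was 24.2%. For centromere genes, the median was -0.63 and -0.61 in pigs 1 and 3 but 0.38 in pig 2. The other kinesins stood at 0.10, 0.90 and 0.09, with pig 2 apart from the other pigs. Of the 17 genes that differed between pigs, 16 were lower in the EVs of all 3 pigs, as were 99 of the 243 such entries. The exception among the 17 was KIF15, which had 2 reads in the MSCs and 7 in the EVs of pig 2.

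**Figure D5:**
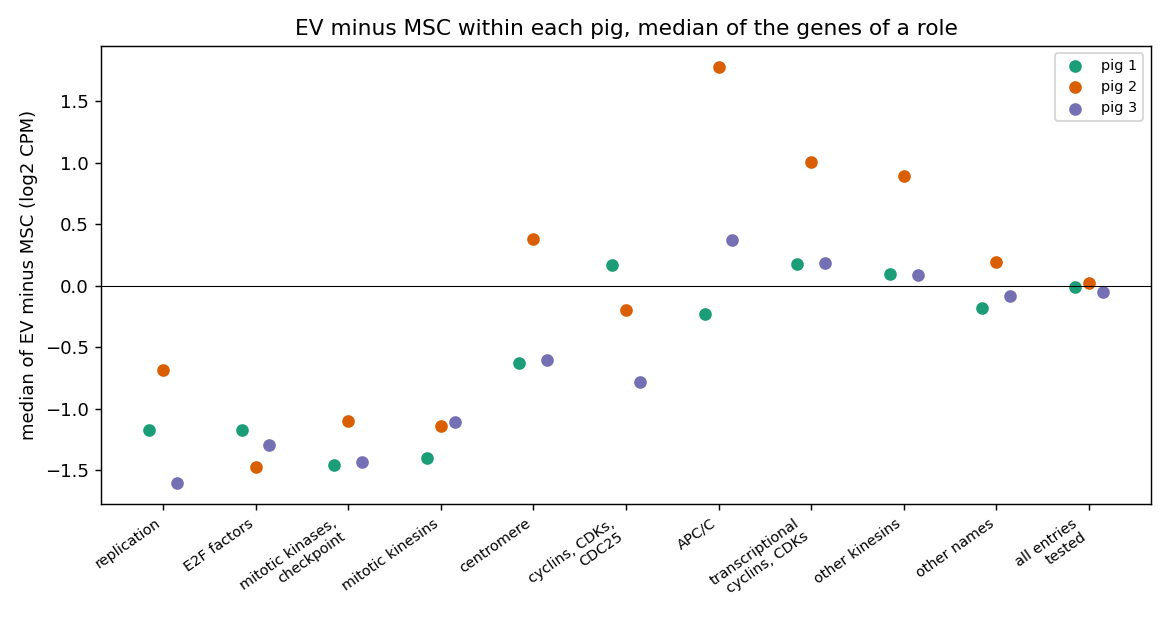
Median over the genes of a role of the difference between the EV and the MSC library of the same pig (y axis, log2 CPM), for each pig and role and for all tested entries. The points of all 3 pigs lie below -0.6 for the replication, E2F, mitotic kinase and mitotic kinesin genes, whereas for the other kinesins pig 2 lies at 0.90 and pigs 1 and 3 near 0.1.

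CDKs and cyclins of transcription had a median SD over the EV libraries of 0.19 on the log2 scale, against 0.39 over the 87 genes and 0.33 over all entries. Over the MSC libraries it was 0.52, against 0.74 over the 87 genes and 0.46 over all entries. CCNT2, a cyclin of the elongation kinase P-TEFb, stood at 13.1, 6.03 and 12.2 CPM in MSCs and at 22.5, 25.6 and 27.3 CPM in EVs, so that the groups did not overlap. Its log2 fold change was 1.26 ± 0.35 (SE), with an unadjusted p = 0.00714 and an adjusted p = 0.227 from edgeR and an adjusted p = 0.0316 from DESeq2. CDK13, a kinase of RNA polymerase II, stood at 90.8, 97.2 and 91.8 CPM in MSCs and at 96.9, 109 and 100.3 CPM in EVs, and its SD of 0.05 over the MSCs was the lowest of the 87 genes. CDK12, its close relative, stood at 66.9, 33.9 and 51.6 CPM in MSCs and at 66.02, 68.8 and 90.3 CPM in EVs. CDK9, the kinase of P-TEFb, was highest in the MSCs of pig 2, at 48.9, 102.8 and 60.3 CPM in MSCs and 66.4, 55.3 and 45.8 CPM in EVs.

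The most abundant kinesins were not mitotic. KIF12 reached 45.2 ± 5.16 RPKM in MSCs and 34.4 ± 12.5 RPKM in EVs, and KIF1C, a motor of membrane and RNA cargo, 34.7 ± 3.32 and 21.5 ± 4.48 RPKM (SD, n = 3 each). For comparison, the most-read mitotic kinesin, KIF20A, had 6.65 ± 5.54 RPKM in MSCs and 1.96 ± 1.85 RPKM in EVs. KIF1C was highest in the MSCs of pig 2, at 721.6, 1061 and 849.7 CPM, and stood at 587.7, 382.3 and 629.5 CPM in EVs (log2 fold change -0.72 ± 0.31 (SE), unadjusted p = 0.0491, adjusted p = 0.311). KIF5B, a heavy chain of conventional kinesin, stood at 246.6, 62.4 and 214.3 CPM in MSCs and at 265.5, 248.7 and 227.1 CPM in EVs. Its low value was thus found in the MSCs of pig 2 and not in the EVs of that pig, unlike that of the mitotic kinesins. Of the 20 tested genes of this group, 11 were lowest in pig 2 among the MSCs, 4 among the EVs and 3 in both. These are 55%, 20% and 15%, near the 46.0%, 30.1% and 16.6% of all entries. Between pigs, 0 of the 20 differed at an adjusted p under 0.05, against 1.96% of all entries. KIF21B, a neuronal motor, stood at 22.5, 31.5 and 27.4 CPM in MSCs and at 41.5, 61.6 and 40.8 CPM in EVs (log2 fold change 0.82, unadjusted p = 0.0169, adjusted p = 0.253).

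The other genes that the naming rule takes in had a median log2 fold change of -0.09. Among them, MCM3AP, a nuclear factor of mRNA export, stood at 192.8, 121.4 and 163.7 CPM in MSCs and at 164.3, 150.9 and 165.1 CPM in EVs, and the splicing factor CDC5L at 83.6, 54.9 and 83.1 CPM in MSCs and 84.3, 87.4 and 112.6 CPM in EVs. CDK2AP1, which binds CDK2, stood at 123.5, 137.4 and 199.7 CPM in MSCs and at 127.1, 81.3 and 142.2 CPM in EVs. CDK17, a kinase outside the core cycle, stood at 16.9, 6.6 and 13.6 CPM in MSCs and at 22.6, 28.0 and 31.1 CPM in EVs (log2 fold change 1.14 ± 0.38 (SE), unadjusted p = 0.0177, adjusted p = 0.257). Of the 15 tested genes of this kind, 0 differed between pigs past the adjusted threshold, against 1.96% of all entries.

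A wider list of cell cycle genes outside the naming rule was read in the same fits. Of 124 listed symbols, 99 had an entry and 78 were tested. Between pigs, 21 of the 78 (26.9%) differed at an adjusted p under 0.05, against 1.96% of all entries. All 21 were lowest in pig 2 in both fractions, as were 126 of the 243 entries that passed this test. By class, the 21 were 18 of 40 mitosis genes, 2 of 27 S phase genes and 1 of 11 genes of RB, p53 and CDK inhibitors. Between EVs and MSCs, 0 of 78 passed the adjusted threshold in either direction, and 5 were lower and 0 higher by the unadjusted one, with backgrounds of 3.57% and 5.55%. The median log2 fold change of the 78 was -0.90, against -0.02 for all entries tested. Of the 78, 68 (87.2%) were below 0, whereas over the 12392 entries this share was 50.9%. With the pig as a block, UHRF1, UBE2C, KIFC1 and CDCA7 fell, or 4 of 78 against 0.605%. The whole spans of UBE2C, KIFC1 and CDCA7 are shared with other entries, so that their reads cannot be assigned with certainty.

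The genes of the wider list named here were chosen after their values were seen, the first of them as the most-read among the 21. ANLN, a scaffold of the cytokinetic ring, had 1908, 93 and 905 reads in the MSC libraries and 445, 57 and 321 in the EV libraries. TPX2, a spindle assembly factor, had 1014, 74 and 617 reads in the MSC libraries and 380, 32 and 182 in the EV libraries. Its whole span is shared with an entry that has 83 reads on the opposite strand. UBE2C, the ubiquitin-conjugating enzyme of the anaphase-promoting complex, had 828, 84 and 568 reads in the MSC libraries and 216, 8 and 94 in the EV libraries. FOXM1, the transcription factor of mitotic genes and the only one of its class among the 21, had 256, 29 and 234 reads in the MSC libraries and 81, 3 and 55 in the EV libraries. Among S phase genes, TYMS, thymidylate synthase, had 847, 572 and 911 reads in the MSC libraries and 412, 480 and 381 in the EV libraries, and RFC2, of the clamp loader, had 1000, 946 and 903 reads in the MSC libraries and 516, 583 and 551 in the EV libraries. For both, all EV counts lay below all MSC counts (log2 fold changes of -0.83 and -0.76, unadjusted p = 0.00652 and 0.00894, adjusted p = 0.223 and 0.237).

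Gene length and the summed MSC markers set the MSC library of pig 2 apart, but not its EV library. In its MSCs, the longest of 3 length classes (gene models of 2812 to 23619 bases) lay at a median of -0.19 log2 CPM from the MSC mean, against 0.01 for both shorter classes. In its EVs, the same class lay at 0.03. The mitotic kinesins had a median gene model of 3309 bases, and the other kinesins one of 5119 bases, against 2020 bases over all entries. The summed level of the 5 MSC markers with reads was 29080 CPM in the MSCs of pig 2, against 14030 and 12400 CPM in those of pigs 1 and 3, and was 10210, 12980 and 20440 CPM in EVs. Vimentin (VIM) made up most of this sum, at 13130, 26990 and 11330 CPM in MSCs, whereas NT5E stood at 102.8, 118.5 and 119.7 CPM. Pericyte and smooth muscle markers summed to 27.6 to 37.2 CPM in MSCs and to 1.435, 0.703 and 3.95 CPM in EVs, with DES and RGS5 at 0. In MSCs nearly all of this sum was ACTA2, at 27.4 to 36.6 CPM. Endothelial markers (2 of 4 with reads, VWF at 0) summed to 16.7, 10.6 and 9.67 CPM in MSCs and to 6.59, 1.64 and 3.14 CPM in EVs, nearly all from PECAM1, so that every EV library lay below every MSC library. Leukocyte markers summed to 44.4 to 63.3 CPM over all 6 libraries (3 of 5 with reads, CD3E and LYZ at 0). Most of this sum was CD14, at 42.1 to 60.2 CPM, whereas PTPRC had 2 to 10 reads per library. Adipocyte markers summed to at most 0.469 CPM (2 of 4, PLIN1 at 0) and epithelial markers to at most 5.46 CPM (3 of 3). The part of transcript length and of other cell types in the differences above was not tested. In bulk libraries, fewer cells of a kind and less RNA per cell cannot be told apart.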

How the data were processed

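The authors sequenced mRNA of 3 MSC and 3 EV libraries, aligned reads with TopHat and counted them per gene with featureCounts per the methods, whereas the submitters' processing notes name HTSeq, with build susScr3. The kit is given as TruSeq RNA v2 in the methods and as a stranded total RNA kit in the labels, and the strand setting of the counting is not given in the sources used here. They deposited raw counts, with 25.4% to 28.2% of each RPKM library total counted on genes, and the deposited RPKM were divided by gene length and that total. Of 29661 entries, 3 shifted by a column were left out, and 11804 of 25322 Ensembl identifiers had a symbol. The table had 0 columns of samples outside the series. Small-RNA files were not used.

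Counts were tested with edgeR 4.0.16 in R 4.3.3 (TMM, filterByExpr, quasi-likelihood, Benjamini-Hochberg adjustment over 12392 entries), EVs against MSCs without a block. CPM on a log2 scale used a prior count of 2. Alternatives were other scaling, no filter, DESeq2 1.42.0, limma 3.58.1 on log2(RPKM + 1) and log2(RPKM + 0.1), the pig as a block, summed entries, and leaving out each library. The test of the pig term and leaving out a whole pig were chosen after seeing the data. P-values measure only the spread between these libraries. The fits were tested on simulated data.

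Members and lists were chosen with earlier results of these data known. Genes are named by rule (MKI67, TOP2A, PCNA, PLK1, CCNB1, CDK1, the 3 most-read genes of each role, genes past the unadjusted thresholds, and the lowest or highest of a range), and other genes after their values were seen, among them those that passed the pig or block tests. The pig in the labels pairs the libraries. Deviations from the group means correlated at 0.251, 0.384 and 0.408 within pigs and at -0.364 to -0.0385 between them. The deviations of a gene cancel out in each group. Positive values within pigs thus bring negative ones between pigs on average, and the latter add no separate evidence.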

Additional observations from a re-analysis of the deposited data

How the results depend on the processing

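The adjusted call of EVs against MSCs, with 0 genes in both directions, held under other scaling, without the filter, with summed entries, on RPKM and without any library or pig, for the genes and for the wider list. With DESeq2 it became 1 higher, and with the pig as a replicate block 7 genes and 4 of the wider list were lower. By the unadjusted thresholds, the number of genes lower in EVs (2) was 7 without the filter, 10 with DESeq2, 0 with limma on log2(RPKM + 1), 1 on log2(RPKM + 0.1) and 18 with the block, and that of the wider list (5) was 10, 13, 0, 3 and 29. The share of all entries lower was 3.15%, 4.33%, 1.57%, 3.13% and 5.17% in these settings. Genes higher (3) were 0 on log2(RPKM + 1), against 1.88%. Without pig 1, pig 2 or pig 3, 1, 20 and 1 genes were lower, against 4.52%, 3.1% and 3.93% of all entries. Without pig 2, 34 of the wider list were lower and 1 gene was higher, and without pig 3, 1 of the wider list was lower. Leaving out 1 library gave 0 to 16 genes lower (0 without the EVs of pig 2 and also without the MSCs of pig 1 or pig 3, 16 without the MSCs of pig 2), 1 to 6 higher and 0 to 27 of the wider list lower. The cause of these changes was not tested.

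Medians on log2(RPKM + 1) moved to -0.34 for E2F factors, -0.57 for mitotic kinases, -0.48 for mitotic kinesins and -0.78 for replication genes, a scale that compresses low values, and on log2(RPKM + 0.1) to -0.94, -1.07 and -1.12 for E2F factors, mitotic kinases and mitotic kinesins. Without pig 1, that of mitotic kinesins was -1.22 and that of the other genes the rule takes in 0.15. Leaving out 1 library gave -2.04 to -0.77 for mitotic kinesins, -2.05 to -0.81 for mitotic kinases, -1.76 to -0.97 for replication genes, -1.60 to -0.97 for E2F factors, -0.72 to -0.14 for centromere genes, -0.36 to 0.01 for cyclins, CDKs and CDC25, -0.17 to 0.12 for the other genes the rule takes in, 0.25 to 0.52 for transcriptional CDKs, 0.17 to 0.70 for the other kinesins and -0.01 to 0.77 for CDC27. The median SD of mitotic kinesins over the MSCs was 0.786 on log2(RPKM + 1).

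The number of genes that differed between pigs was 5 to 24 over the libraries left out, and that of the wider list (21) 5 to 32, with 5 in both cases without the MSCs of pig 2. Over all entries, 1.07% to 6.48% differed in these fits, lowest without the MSCs of pig 2 and highest without its EVs. For the wider list, the number was 36 without scaling, 35 without the filter and 35 with DESeq2, where 5.72%, 4.11% and 5.36% of all entries differed. Depth limits the EV values of pig 2, which rest on 2 to 59 reads for the mitotic kinases and kinesins. The planned search of promoter motifs was not run, as no promoter sequences were used here.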
